A study of Arabidopsis thaliana with 8 samples.

Results

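Polygalacturonases cut homogalacturonan, the unbranched galacturonic acid backbone of pectin, and belong with related enzymes to a large family of proteins with a pectin lyase-like fold. They act in the cell wall on stretches from which pectin methylesterases have removed the methyl groups, and loosen the wall in expanding cells, in separating cells and in the movement of stomatal guard cells. Pectin content and the degree of pectin methylation are known to shift in leaves of Arabidopsis thaliana during cold acclimation, in which plants held at low but non-freezing temperatures become able to survive frost. The genes described here are 40 loci annotated as polygalacturonase or pectin lyase-like, chosen as a list that includes AT1G48100. The platform annotation paired 36 of these with a probe set, out of 14265 loci paired in all. Of the 36, 34 had a probe set of their own. AT1G05650 and AT1G05660, which are neighbours in the genome, shared 1 probe set that measures their sum, so the 36 loci have 35 probe sets. AT3G26610 (PGX1), AT4G20040, AT4G23500 and AT5G49215 had no paired probe set and are not analysed here.

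Transcript levels were measured on 8 Affymetrix ATH1 arrays, 1 array per sample, in 4 groups of 2: Col-0 wild type and sfr3 plants, each without cold acclimation (here warm) and after it (here cold). The sfr3 mutant is an EMS-induced line in the Col-0 background, known to carry a mutation in the cytosolic acetyl-CoA carboxylase gene and to be damaged by freezing after acclimation. All groups were grown on compost at 20 °C for 38 days in 8 h light and 16 h dark, to growth stage 1.14. Humidity was 70% and light 100 microEinsteins. The seeds of all groups had been kept at 4 °C for 48 h, so the warm plants too had met cold as seeds. No source used here gives the temperature or duration of the acclimation. The wild-type descriptions name the entire rosette and the sfr3 descriptions the aerial parts, so tissue and genotype cannot be told apart, and a single sfr3 line was used.

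The values are MAS5 signals on a linear scale. The array named cold sfr3 replicate 1 stood apart from the others. Its hybridisation controls, bacterial transcripts added to every sample, were 5.75 times the median of the other arrays, against 0.542 to 1.18 for the others. Its background level, the 95th percentile of 27 probe sets for bacterial poly-A controls, was 35.4, against 6.37 to 11.3. All 4 green leaf markers were above background on all 8 arrays. The root marker PYK10, the single member of its 3-gene list with a probe set, summed to 132 to 196 in warm wild type, 28.8 to 31.8 in cold wild type, 199 to 202 in warm sfr3 and 40.01 to 112 in cold sfr3, so it was lower in the cold in both genotypes. Its part in the differences below was not tested. The guard cell gene FMA, the 1 gene of 4 on its list with a probe set, was between 36.01 and 49.5 on 7 arrays and 77.9 on cold sfr3 replicate 1. No flower or epidermis marker on the lists was paired with a probe set.

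A member was taken as above background in a group when both of its arrays exceeded their own background level. By this measure 24 of the 35 probe sets (68.6%) were above background in at least 1 group, against 79.7% of all 22746 probe sets that are not controls, and 10 (28.6%) were above it on all 8 arrays, against 51.2% of all. The counts per group were 17 in warm wild type, 19 in cold wild type, 15 in warm sfr3 and 14 in cold sfr3. On single arrays, 15 members were above background on cold sfr3 replicate 1 and 22 on replicate 2, and the other arrays had 18 to 27. Since the background level of replicate 1 was itself higher, the count of the cold sfr3 group is set by that array.

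Of the 35 probe sets, 6 were above background on no array, and they include genes with known roles outside rosette leaves. AT1G65570 (RCPG), which acts in the shedding of root cap cells, had signals of 1.76 to 7.57. AT1G78400 (PGX2), which promotes cell expansion and is known from stems, ranged from 0.951 to 9.31. AT4G18180 ranged from 0.844 to 3.35, AT2G43860 from 0.771 to 3.23, AT3G59850 from 0.418 to 2.49 and AT2G26620 from 0.276 to 3.28. Another 5 were above background on some array but on both arrays of no group. These were AT5G39910 (2.66 to 60.5, the highest on cold sfr3 replicate 1), AT2G40310 (0.887 to 31.9, also highest there), AT5G48140 (1.27 to 11.5), AT1G70500 (0.886 to 8.65) and the shared probe set of AT1G05650 and AT1G05660 (1.21 to 9.70).

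**Figure D1:**
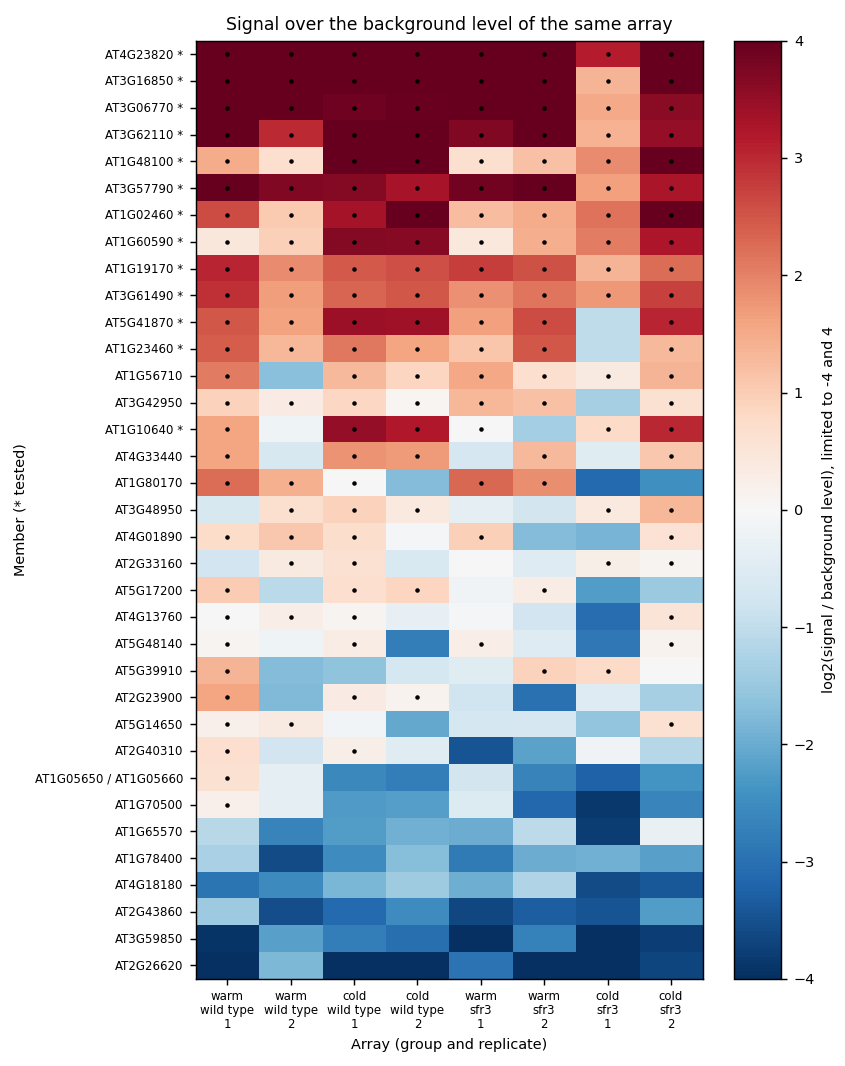
Log2 ratio of each member's signal to the background level of the same array, for the 35 probe sets (rows, ordered by the number of arrays above background) and the 8 arrays (columns, by group and replicate). Black dots mark values above background and asterisks the 13 tested members, and colours are limited at -4 and 4. The column of cold sfr3 replicate 1 is paler or bluer than its neighbours for most members, as its background level was 35.4.

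To test differences, log2 of the signal plus a pseudocount of 2.17 was fitted for the brightest 60% of probe sets by their mean over the 8 arrays, those with a mean of at least 26.7. This scale understates the change of dim genes. Of the 35 probe sets of the family, 13 passed this filter (37.1%) and 22 did not. The dimmest inside was AT1G23460, with a mean of 28.5, and the brightest outside AT1G56710, with 21.9. All 13 tested members were above background on both arrays of at least 1 group, as were 11 of the 22 untested members. A gene was called at an adjusted p below 0.05 by limma, adjusted over all 13648 probe sets tested. Whether the 2 replicates of a group were grown as separate plants is not stated in the labels. The p-values therefore reflect sample-to-sample spread alone, which could be technical.

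In wild type the cold raised 4 of the 13 tested members, AT1G48100, AT1G60590, AT1G10640 and AT1G02460, and lowered AT4G23820 and AT3G06770. The filter bears on this count: AT1G48100, AT1G60590 and AT1G10640 had warm wild-type means below 26.7 and passed through their cold arrays, so the number of higher members among those tested is a description and supports nothing about the family. The count of 6 called members stands beside 26.3% of all probe sets called in this comparison, 13% higher and 13.3% lower. Warm and cold arrays did not overlap for 5 members that were higher and 4 that were lower in the cold, while 74.2% of all probe sets did not overlap, 36.8% higher and 37.4% lower. The median log2 difference of the 13 was 0.08, and that of all probe sets tested 0.00. The individual values ran from -0.94 to 3.85. In bulk tissue, fewer cells of a type and less RNA per cell cannot be told apart.

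In wild type the member with the largest difference was AT1G48100, known as PGX3, a polygalacturonase with known roles in the expansion of the rosette and in the opening of stomata. Its signal was 17.8 and 18.1 in warm wild type and 304 and 275 in cold wild type. In sfr3 it was 14.9 and 17.4 in the warm and 132 and 167 in the cold. Every cold array stood above every warm array, and all 8 arrays were above their background level. In wild type it rose by a log2 of 3.85 (SE 0.26, adjusted p = 2.47e-05 by limma), and in sfr3 by 3.04 (SE 0.26, adjusted p = 7.70e-05). The rise in sfr3 was 3.21 without cold sfr3 replicate 1 (adjusted p = 2.19e-06), and AT1G48100 was called in each genotype under all 18 alternative settings.

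AT1G60590, a polygalacturonase-like gene, had signals of 8.77 and 21.8 in warm wild type and 104 and 106 in cold wild type. Its warm sfr3 arrays had 12.9 and 21.5 and its cold sfr3 arrays 146 and 87.0. Warm and cold arrays did not overlap in either genotype. It rose by a log2 of 2.73 in wild type (SE 0.47, adjusted p = 0.00271 by limma) and of 2.61 in sfr3 (SE 0.47, adjusted p = 0.00342, with 2.24 without cold sfr3 replicate 1). These calls held under all 18 alternatives.

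AT1G02460 was at 38.8 and 23.3 in warm wild type and at 82.5 and 154 in cold wild type. It had 22.6 and 21.9 in warm sfr3 and 161 and 155 in cold sfr3. The cold wild-type arrays differed from each other by more than the cold sfr3 arrays did, and neither genotype's warm and cold arrays overlapped. The log2 rise was 1.83 in wild type (SE 0.36, adjusted p = 0.00571 by limma) and 2.71 in sfr3 (SE 0.36, adjusted p = 7.56e-04, with 2.68 without cold sfr3 replicate 1). In wild type the call of AT1G02460 was lost without warm replicate 2 (adjusted p = 0.0545) or cold replicate 2 (0.0850).

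AT1G10640 was not above background on every warm array. Its signals were 19.2 and 10.1 in warm wild type, where replicate 2 was not above background, and 9.85 and 3.02 in warm sfr3, where replicate 2 was not. In the cold they were 93.1 and 79.6 in wild type and 60.3 and 74.7 in sfr3, all above background. It rose by a log2 of 2.45 in wild type (SE 0.55, adjusted p = 0.0108 by limma) and of 3.13 in sfr3 (SE 0.55, adjusted p = 0.00314, with 3.28 without cold sfr3 replicate 1). The sfr3 value was the largest among the 13 members but ran from 1.91 to 3.74 over the settings. It rests in part on the warm sfr3 signal of 3.02, below background, so its rank is not a measured order. The wild-type call of AT1G10640 was lost without warm replicate 2 (adjusted p = 0.0826), cold replicate 1 (0.112) or cold replicate 2 (0.0916). The sfr3 call was lost when the warm and cold sfr3 arrays were fitted alone (adjusted p = 0.0517).

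**Figure D2:**
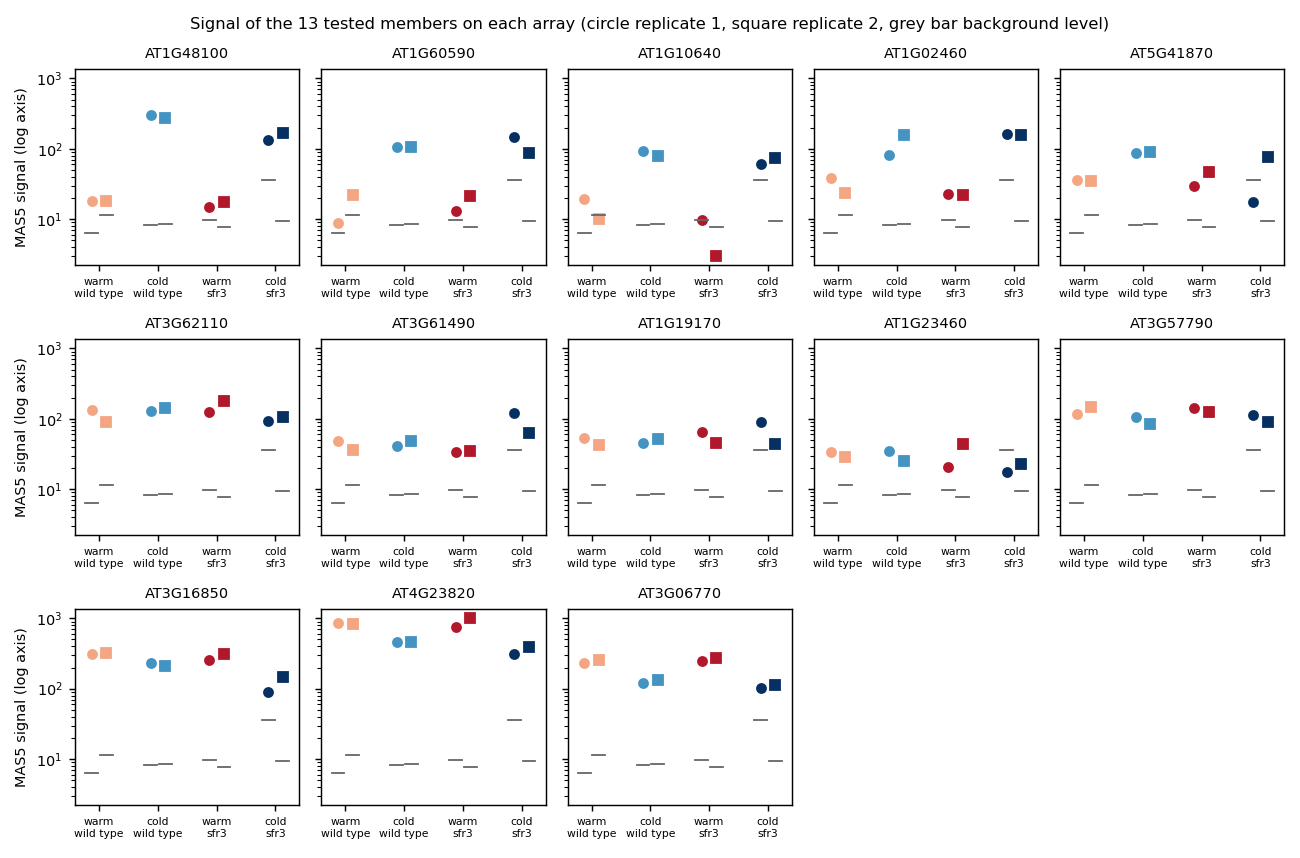
MAS5 signal on a log axis for the 13 tested members on each of the 8 arrays, by group, with replicate 1 as circles and replicate 2 as squares. Grey bars are the background level of each array. AT1G48100, AT1G60590, AT1G10640 and AT1G02460 stand higher in the cold groups, AT4G23820 and AT3G06770 lower, and the background bar of cold sfr3 replicate 1 is at 35.4.

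The members that fell in wild type were pectin lyase-like genes with strong signals in the warm. AT4G23820 had 846 and 832 in warm wild type and 465 and 453 in cold wild type. Its signals in sfr3 were 749 and 1005 in the warm and 315 and 396 in the cold. Warm arrays were above cold arrays in each genotype. It fell by 0.87 on the log2 scale in wild type (SE 0.20, adjusted p = 0.0119 by limma) and by 1.29 in sfr3 (SE 0.20, adjusted p = 0.00164). Without cold sfr3 replicate 1 the value for AT4G23820 in sfr3 was -1.13. In wild type its call was lost without warm replicate 1 or 2 (adjusted p = 0.0798 and 0.0689) or cold replicate 1 or 2 (0.0779 and 0.0961), and with each array centred on its median (0.0987).

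AT3G06770 was at 235 and 259 in warm wild type and 122 and 133 in cold wild type. It was at 244 and 269 in warm sfr3 and 101 and 113 in cold sfr3. The 4 warm arrays lay close together, as did the 4 cold arrays. The fall was 0.94 on the log2 scale in wild type (SE 0.19, adjusted p = 0.00573 by limma) and 1.24 in sfr3 (SE 0.19, adjusted p = 0.00141, with -1.16 without cold sfr3 replicate 1). Leaving out warm replicate 2 or cold replicate 1 ended the wild-type call of AT3G06770 (adjusted p = 0.0552 and 0.0643).

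In sfr3 the same 6 genes were called in the same directions, and AT3G16850 and AT3G61490 were called as well, which gave 5 higher and 3 lower of the 13 tested. In warm sfr3 4 of the tested members, the same 3 and AT1G02460, had means below the filter and passed through their cold arrays, so this count too is a description. All probe sets had 31.2% called in this comparison, 14.9% higher and 16.4% lower. The arrays did not overlap for 5 higher and 5 lower members, beside 63.6% of all probe sets, 33.3% higher and 30.3% lower. The median log2 difference of the members was -0.02, against 0.06 over all probe sets tested. The replicates of cold sfr3 differed from each other more than those of the other groups (a median absolute log2 difference of 0.552 over the probe sets tested, against 0.179 to 0.231).

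AT3G16850, a pectin lyase-like gene, had 312 and 326 in warm wild type and 231 and 213 in cold wild type. In sfr3 it had 256 and 315 in the warm and 90.0 and 147 in the cold. Cold arrays were below warm arrays in both genotypes, and the lowest signal was on cold sfr3 replicate 1. It fell by 1.29 on the log2 scale in sfr3 (SE 0.25, adjusted p = 0.00456 by limma), and by 0.94 without that array (adjusted p = 0.00209). In wild type the log2 value of AT3G16850 was -0.52 and was not called (adjusted p = 0.155), though it was called when cold sfr3 replicate 1 or 2 was left out, arrays that enter this comparison through the shared variance alone (adjusted p = 0.0160 and 0.0167). It was also called when only the wild-type arrays were fitted or arrays were weighted (adjusted p = 0.00797 and 0.00941 by limma). These fits called 48% and 48.4% of all probe sets, against 26.3% in the reported fit. The fits without a cold sfr3 array also called a larger share than the reported fit.

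AT3G61490 had signals of 48.6 and 35.97 in warm wild type and 41.0 and 48.0 in cold wild type, which overlap. They were 34.0 and 34.4 in warm sfr3 and 119 and 62.2 in cold sfr3. Its log2 difference was 1.28 in sfr3 (SE 0.37, adjusted p = 0.0284 by limma) and 0.08 in wild type (adjusted p = 0.911). Without cold sfr3 replicate 1, the array with the high controls, the rise of AT3G61490 was 0.82 and was not called (adjusted p = 0.0596). The call was also lost without warm sfr3 replicate 1 (adjusted p = 0.124) or 2 (0.114), warm wild-type replicate 1 (0.0510) or cold wild-type replicate 1 (0.0555) or 2 (0.0573), when only the sfr3 arrays were fitted (0.107) and with array weights (0.109).

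**Figure D3:**
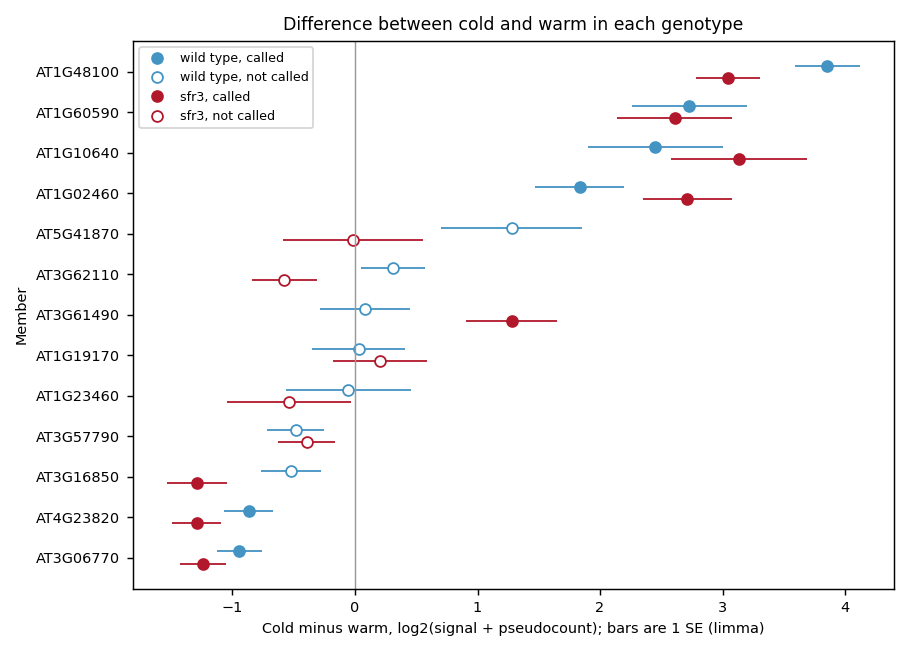
Difference between cold and warm on the log2(signal + pseudocount) scale for the 13 tested members in wild type (blue) and sfr3 (red), with bars of 1 SE from limma and filled points for an adjusted p below 0.05. AT1G48100 has the largest value in wild type, 3.85, and AT3G06770 the lowest, -0.94. AT3G61490 and AT3G16850 are filled in sfr3 and open in wild type.

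The other 5 tested members were called in neither genotype. AT5G41870 was at 35.7 and 34.9 in warm wild type and 87.1 and 90.3 in cold wild type, groups that do not overlap. It was at 30.0 and 47.3 in warm sfr3, and its cold sfr3 arrays gave 17.4 on replicate 1, below that array's background, and 76.9 on replicate 2. The log2 value in wild type was 1.28 (adjusted p = 0.138 by limma), and without cold sfr3 replicate 1 or 2 it was called (adjusted p = 0.00121 and 0.00236), as it was when only the wild-type arrays were fitted (4.08e-04) or arrays were weighted (0.00136). In sfr3 the log2 value of AT5G41870 was -0.02 (adjusted p = 0.982), which became 0.99 without cold sfr3 replicate 1 (adjusted p = 0.0233) and -1.03 without cold sfr3 replicate 2 (adjusted p = 0.0210). The direction in sfr3 was thus set by which of these arrays was kept. The fits that called AT5G41870 in wild type called a larger share of all probe sets than the 26.3% of the reported fit. The share was 48% with the wild-type arrays alone and 48.4% with array weights.

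AT3G57790 had 118 and 147 in warm wild type, 105 and 83.4 in cold wild type, 140 and 124 in warm sfr3 and 111 and 89.3 in cold sfr3. Cold arrays were below warm arrays in each genotype, but the log2 values of -0.49 and -0.39 were not called (adjusted p = 0.166 and 0.220 by limma). In wild type AT3G57790 passed when only the wild-type arrays were fitted or arrays were weighted (adjusted p = 0.0494 and 0.0336 by limma). These fits called 48% and 48.4% of all probe sets. AT3G62110 had 133 and 90.4 in warm wild type, 130 and 144 in cold wild type, 125 and 178 in warm sfr3 and 92.2 and 107 in cold sfr3. Its log2 values were 0.31 in wild type and -0.58 in sfr3, neither called (adjusted p = 0.448 and 0.123). Without cold sfr3 replicate 2 the sfr3 value of AT3G62110 passed (adjusted p = 0.0472).

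AT1G19170 had 52.9 and 42.0 in warm wild type, 45.1 and 51.3 in cold wild type, 65.3 and 45.7 in warm sfr3 and 90.5 and 44.0 in cold sfr3. Warm and cold overlapped in each genotype, with log2 values of 0.03 and 0.20 (adjusted p = 0.970 and 0.705 by limma). AT1G23460 is measured by a probe set of the _s_at type, whose probes can match more than 1 transcript, so its gene is uncertain. Its signals were 33.8 and 28.7 in warm wild type, 35.1 and 25.5 in cold wild type, 20.8 and 43.6 in warm sfr3 and 17.6 and 23.0 in cold sfr3. Warm and cold overlapped in each genotype, with log2 values of -0.05 and -0.54 (adjusted p = 0.957 and 0.432). The 17.6 of AT1G23460 on cold sfr3 replicate 1 was below that array's background of 35.4, so its sfr3 value is not a measured size.

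Between the genotypes no tested member was called, in the warm or in the cold. In the warm limma called 0 of the 13 members and 0.00% of all probe sets, and 0 members had an unadjusted p under 0.05. The log2 values of sfr3 minus wild type ran from -1.03 (AT1G10640) to 0.43 (AT3G62110) with a median of 0.00. The sfr3 arrays lay below the wild-type arrays for 4 members and above for 0, and 30.8% of all probe sets did not overlap, 14.2% higher and 16.6% lower. In the cold 0 of the 13 were called, against 0.125% of all probe sets, 0.103% higher and 0.022% lower, and 3 members had an unadjusted p under 0.05. No share of all probe sets at that unadjusted level is given here, so these 3 are not read as a result. The median of the 13 was -0.35, against -0.01 over all probe sets tested.

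The 3 members were AT3G16850, AT1G48100 and AT3G61490. For AT1G48100 the cold sfr3 arrays (132 and 167) lay below the cold wild-type arrays (304 and 275), with a log2 difference of -0.95 (SE 0.26, unadjusted p = 0.00560, adjusted p = 0.322 by limma). AT3G16850 had a difference of -0.93 (SE 0.25, unadjusted p = 0.00407, adjusted p = 0.314), again with cold sfr3 arrays below cold wild-type arrays. AT3G61490 had 0.92 (SE 0.37, unadjusted p = 0.0335, adjusted p = 0.375), with cold sfr3 arrays above. Of the 13 members, 8 had both cold sfr3 arrays below both cold wild-type arrays and 2 had both above, where 21.2% and 20.7% of all probe sets did, 41.9% in all.

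The cold comparison between genotypes depended on the cold sfr3 arrays. Without replicate 1 no member was called, and the values were -0.78 for AT1G48100 (adjusted p = 0.238 by limma), -0.58 for AT3G16850 (0.215) and 0.47 for AT3G61490 (0.619). Without replicate 2, so that replicate 1 stood alone for the group and was assumed to vary like the others, 6 members were called. These were AT1G48100 (-1.12, adjusted p = 0.00703), AT3G16850 (-1.28, 4.58e-04), AT3G61490 (1.38, 0.00442), AT5G41870 (-2.21, 5.04e-04), AT4G23820 (-0.54, 0.0438) and AT1G19170 (0.88, 0.0361). In that fit 39.4% of all probe sets were called, so the members' count stands beside a high background. For AT5G41870 the signal on cold sfr3 replicate 1 was 17.4, below that array's background of 35.4, so its value of -2.21 is not a measured size. What sets cold sfr3 replicate 1 apart was not tested.

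**Figure D4:**
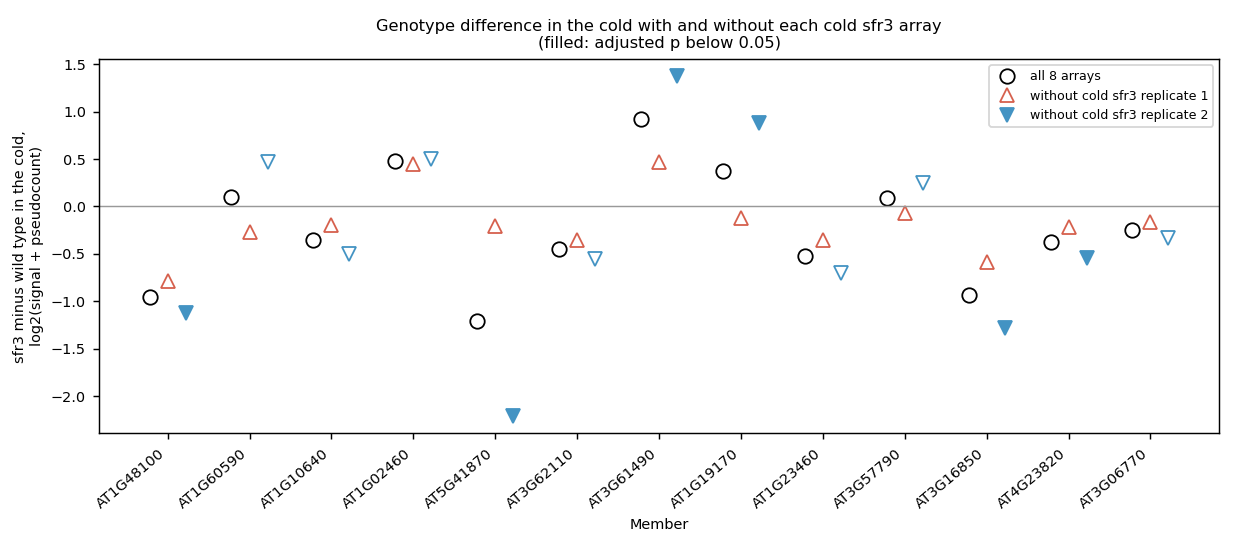
Difference of sfr3 minus wild type in the cold on the log2(signal + pseudocount) scale for the 13 tested members, with all 8 arrays (circles), without cold sfr3 replicate 1 (upward triangles) and without cold sfr3 replicate 2 (downward triangles), and filled symbols for an adjusted p below 0.05. The 6 filled symbols are all from the fit without replicate 2, in which the array with high controls stands alone.

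The response to cold was also compared between the genotypes directly, as the interaction, the cold difference of sfr3 minus that of wild type. None of the 13 members was called by limma, against 0.0366% of all probe sets, 0.0293% higher and 0.00733% lower, and 2 had an unadjusted p under 0.05, AT3G62110 (log2 -0.89, SE 0.37, unadjusted p = 0.0406) and AT3G61490 (1.20, SE 0.52, unadjusted p = 0.0469), each with an adjusted p of 0.733. Again no share of all probe sets under that unadjusted level is given here, so the 2 are not read as a result. AT1G48100 had an interaction of -0.81 (SE 0.37, unadjusted p = 0.0578, adjusted p = 0.733). The largest value was that of AT5G41870, -1.30 (SE 0.81, adjusted p = 0.733 by limma). Its signal on cold sfr3 replicate 1 was 17.4, below that array's background of 35.4. Neither this value nor its value without replicate 2, where that array stands alone, is a measured size. Without cold sfr3 replicate 2 the interaction was called for AT5G41870 (-2.30, adjusted p = 0.00365), AT3G16850 (-1.11, 0.00795) and AT3G61490 (1.65, 0.0112), in a fit that called 27.9% of all probe sets. Without replicate 1 it was called for 0 members.

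Among the 22 members below the filter, AT1G80170 had the clearest separation of warm from cold. It is a pectin lyase-like gene with 30.2 and 30.1 in warm wild type and 8.31 and 2.57 in cold wild type, and 47.3 and 28.4 in warm sfr3 and 4.09 and 1.71 in cold sfr3. Every warm signal was above every cold signal. Both cold sfr3 arrays were below background, as was cold wild-type replicate 2 (background 8.57). The background of cold sfr3 replicate 1, 35.4, exceeded both warm wild-type signals and that of warm sfr3 replicate 2. The order is therefore not measured on that array. Against the background levels AT1G80170 was at least 2.01-fold lower in cold sfr3 on average over the arrays, which is not a bound for each array. When every probe set was tested without a filter, its log2 value was -2.98 in sfr3 (SE 0.68, adjusted p = 0.0139 by limma) and -2.20 in wild type (SE 0.68, adjusted p = 0.0579). Both values use signals below background, so they are not measured sizes. AT1G80170 was the only 1 of the 22 called in any comparison in that fit, and it was singled out after its values were seen.

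AT1G56710 had 26.9 and 3.54 in warm wild type, 20.0 and 15.4 in cold wild type, 27.9 and 12.3 in warm sfr3 and 45.7 and 23.7 in cold sfr3. AT4G33440 had 19.0 and 7.20, 28.4 and 28.2, 6.05 and 19.2, and 25.2 and 19.9 in the same order of groups. AT3G48950 had 4.102 and 17.6, 15.5 and 11.2, 7.46 and 4.66, and 46.9 and 23.3. Warm and cold arrays of AT1G56710 overlapped in each genotype. The cold arrays of AT4G33440 were above the warm ones in each genotype. However, its 25.2 on cold sfr3 replicate 1 was below that array's background of 35.4. Its warm wild-type replicate 2 and warm sfr3 replicate 1 were also below background, so the order in sfr3 gives no measured direction. The cold sfr3 arrays of AT3G48950 were above its other 6 arrays and above background, and both its warm sfr3 arrays were below background.

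AT3G42950 had 12.01 and 14.2 in warm wild type, 14.5 and 9.13 in cold wild type, 24.4 and 17.7 in warm sfr3 and 14.2 and 14.3 in cold sfr3. AT4G01890 had 10.5 and 24.1, 13.3 and 8.11, 18.7 and 2.33, and 9.68 and 13.9 in these groups. AT2G23900 had 19.0 and 3.33, 10.4 and 9.54, 5.59 and 0.978, and 24.8 and 3.70. Warm and cold arrays of AT4G01890 and AT2G23900 overlapped within each genotype, while the warm sfr3 arrays of AT3G42950 were above the cold ones. On cold sfr3 replicate 1 the 14.2 of AT3G42950 was below that array's background of 35.4, so the order is not measured on that array. Both arrays were above background for AT4G01890 in warm wild type alone and for AT2G23900 in cold wild type alone.

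Known roles exist for several of the remaining faint genes. AT2G33160 (NMA, or NIMNA), which acts in cell elongation in the early embryo, had 3.78 and 14.7 in warm wild type, 12.6 and 5.64 in cold wild type, 9.52 and 5.43 in warm sfr3 and 42.1 and 10.1 in cold sfr3. AT5G14650 (PGLR), a polygalacturonase known from roots, had 7.28 and 14.4, 7.56 and 2.08, 5.94 and 4.91, and 11.9 and 14.1 in these groups. For both genes the cold sfr3 arrays were above the warm sfr3 arrays and neither was called when all probe sets were tested. The warm sfr3 arrays of both genes were below background. The cold sfr3 arrays of AT2G33160 were above it. For AT5G14650 the 11.9 on cold sfr3 replicate 1 was below that array's level of 35.4, so its order gives no measured direction.

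AT5G17200 had 12.9 and 5.31, 13.2 and 15.5, 8.84 and 9.47, and 7.57 and 3.36 in the same order of groups, and AT4G13760 had 6.497 and 13.6, 8.74 and 6.89, 9.43 and 4.52, and 4.24 and 13.4. AT4G13760 had overlapping warm and cold arrays in both genotypes.

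Other genes that make, modify or degrade pectin and related wall polymers were examined in lists. Of the 45 tested genes of 7 lists, 15 were called for cold in wild type and 22 in sfr3, in both directions. Of all probe sets 26.3% and 31.2% were called in these comparisons. The lists below were put together by locus from known family membership. As for the members, the filter bears on their counts of higher and lower genes, so these are descriptions. A count of settings given for a list gene includes the reported fit. Of 27 other polygalacturonase loci, 10 had a probe set and none passed the filter, though 4 were above background in at least 1 group. These 10 include ADPG1, known from pod opening and anther dehiscence.

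Pectin methylesterases, which prepare pectin for polygalacturonases, had 8 tested genes of 41 listed. In wild type 2 rose and 1 fell (median log2 0.15), and in sfr3 2 rose and 2 fell (median 0.49). AT3G10720 fell with log2 values of -2.31 in wild type and -2.23 in sfr3 (adjusted p = 9.89e-05 and 1.17e-04 by limma). AT5G09760 rose in wild type and sfr3 (1.37 and 1.14, adjusted p = 0.00171 and 0.00418), as did AT3G49220 (1.10 and 1.14, adjusted p = 0.00116 and 9.61e-04). AT3G59010 fell in sfr3 (-2.20, adjusted p = 0.0290 by limma, and -0.97 without cold sfr3 replicate 1). Its signal on cold sfr3 replicate 1 was 5.43, below that array's background of 35.4, so the -2.20 is not a measured size. The call was lost without any 1 of the warm wild-type, cold wild-type or warm sfr3 arrays. It held in 9 of 18 settings.

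Of pectate lyases, which cut the same backbone by another reaction, 14 of 26 were tested. In wild type 2 rose and 2 fell (median log2 0.21), and in sfr3 5 rose and 3 fell (median 0.65). These counts and medians are a description. AT3G27400 and AT1G67750 had warm sfr3 means of 16.3 and 23.7, below the 26.7 of the filter, and passed through higher signals in other groups. AT5G04310 had cold means of 8.82 in wild type and 5.65 in sfr3 and passed through its warm arrays. AT3G09540 rose in wild type and sfr3 (2.20 and 1.55, adjusted p = 4.68e-04 and 0.00270 by limma), as did AT4G24780 (1.04 and 0.95, adjusted p = 0.00555 and 0.00793). AT5G04310 fell in wild type (-2.48, adjusted p = 0.0129 by limma), where its 6.35 on cold replicate 2 was below that array's background of 8.57. In sfr3 AT5G04310 fell to below background, at least 3.68-fold on average over the arrays (adjusted p = 0.00369 by limma). AT3G27400 and AT1G67750 rose in sfr3 (2.39 and 1.62, adjusted p = 0.00111 and 0.0456). The wild-type call of AT5G04310 was lost without warm replicate 1 (0.130) or 2 (0.101) or cold replicate 2 (0.0950), and its sfr3 call without warm sfr3 replicate 1 (0.0670). The wild-type call of AT4G24780 was lost without warm or cold wild-type replicate 1 (0.0579 and 0.0721). Its sfr3 call was lost without warm sfr3 replicate 1 (0.0504) or 2 (0.0524), with array weights (0.0555) and with median centring (0.119). AT1G67750 was called in 4 of 18 settings and had 0.84 without cold sfr3 replicate 1. Its call was lost without any single array other than cold sfr3 replicate 2 (0.0612 to 0.163).

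Inhibitor proteins of these enzymes had 6 tested genes of 16, with 2 higher and 1 lower in each genotype (median log2 0.33 in wild type and 0.10 in sfr3). AT4G25260 fell by 3.57 in wild type and by 2.82 in sfr3 (adjusted p = 1.07e-04 and 3.77e-04 by limma). AT3G17130 rose by 1.87 and 2.00 (adjusted p = 0.00270 and 0.00193) and AT3G47380 by 1.5004 and 1.73 (adjusted p = 0.00316 and 0.00157). These 3 genes were called in both genotypes under every alternative run.

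Among pectin acetylesterases 5 of 11 were tested. AT3G05910 fell in both genotypes (log2 -1.42 and -1.78, adjusted p = 0.00438 and 0.00138 by limma), and AT3G09410 rose in sfr3 (0.76, adjusted p = 0.0300). The medians were 0.39 in wild type and 0.95 in sfr3. The wild-type call of AT3G05910 was lost without cold replicate 2 (0.0538). The sfr3 call of AT3G09410 held in 9 of 19 settings. It was lost without any 1 of the wild-type or warm sfr3 arrays (0.0522 to 0.158), with quantile normalization (0.0601), median centring (0.172) or array weights (0.184), and when only the sfr3 arrays were fitted (0.154). Of 19 genes of homogalacturonan synthesis 2 were tested, with medians of 0.25 and 0.37. AT3G49720 rose in sfr3 (0.81, adjusted p = 0.0229, and 0.48 without cold sfr3 replicate 1), a call that held in 13 of 19 settings and was lost without warm sfr3 replicate 1 (0.125) or 2 (0.0818).

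Of the expansins, wall-loosening proteins without enzyme activity on pectin, 4 of 12 were tested (median log2 0.17 in wild type and 0.30 in sfr3). EXPA8 (AT2G40610) fell by 2.38 in wild type and 3.135 in sfr3 (adjusted p = 8.70e-04 and 2.00e-04 by limma), and EXPA15 (AT2G03090) rose by 1.38 in sfr3 (adjusted p = 0.00369), a call lost when only the sfr3 arrays were fitted (0.0659). The xyloglucan endotransglucosylase/hydrolases, which rejoin another wall polymer, had 6 tested of 21 (medians -0.93 and -0.79), with 1 higher and 2 lower in wild type and 1 higher and 1 lower in sfr3. EXGT-A3 (AT2G01850) fell by 2.72 and 2.61 (adjusted p = 3.10e-05 and 3.59e-05), and XTH32 (AT2G36870) rose by 1.57 and 1.83 (adjusted p = 1.99e-04 and 8.38e-05). XTH18 (AT4G30280) fell in wild type at least 6.46-fold to below background (adjusted p = 0.0387), a call lost without any single warm or cold wild-type or warm sfr3 array (0.0789 to 0.197) and held in 11 of 18 settings.

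**Figure D5:**
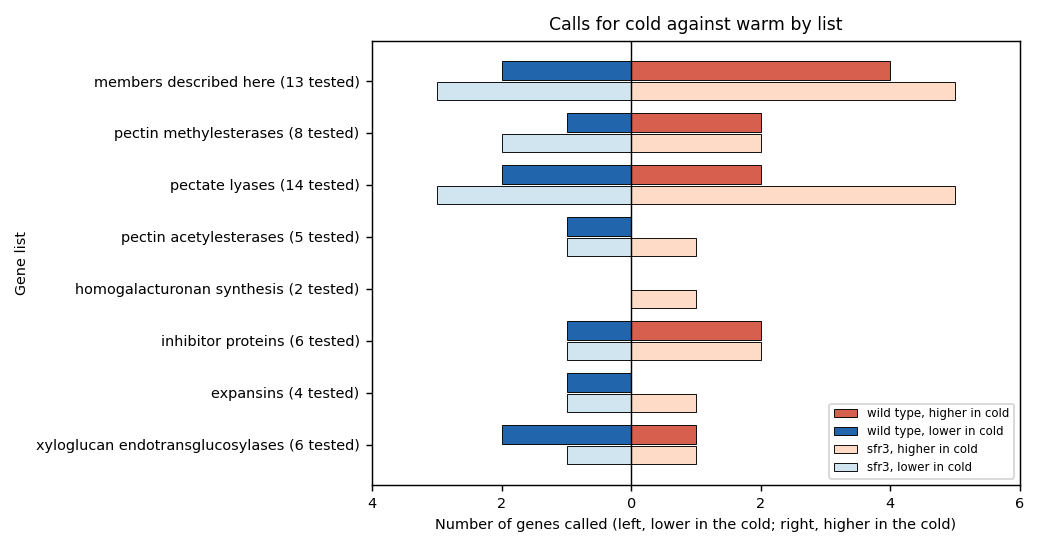
Number of genes with an adjusted p below 0.05 for cold against warm, lower to the left and higher to the right, in wild type (dark bars) and sfr3 (pale bars), for the members and 7 lists, with the number tested in brackets. The members had 4 higher and 2 lower in wild type and 5 higher and 3 lower in sfr3, and pectate lyases 2 and 2, and 5 and 3. For all probe sets 26.3% were called in wild type and 31.2% in sfr3. The counts are a description, as some genes passed the filter through their cold or their warm arrays alone.

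Between the genotypes, in the warm, in the cold or in the interaction, limma called 0 of the 45 tested genes of these 7 lists. Of all probe sets 0%, 0.125% and 0.0366% were called in these comparisons. At an unadjusted p under 0.05 there were 3 in the warm, 8 in the cold and 5 for the interaction. The share of all probe sets at that unadjusted level is not given here, so these counts are not read as a result.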

How the data were processed

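MAS5 signal intensities per probe set were deposited by the authors. The submitters' processing notes name MAS5 and GCOS with no version, and how background and mismatch probes were treated is not given in these sources. Each array had a 2% trimmed mean of 100.0. Without 64 controls there were 22746 probe sets. Probe sets were named through the platform annotation and RefSeq genes of TAIR10.1, used for names and gene order only: 13513 had 1 gene, 503 several and 8730 none.

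Group means over all 8 arrays were fitted with limma 3.58.1 (R 4.3.3), eBayes with trend, on log2(intensity + 2.17), leaving 4 residual degrees of freedom, with the pseudocount being the 10th percentile of all values. P-values were two-sided, with Benjamini-Hochberg adjustment over the 13648 probe sets tested. The number of arrays limits the precision. The fit was tested on simulated data. Signals on each array are given for members called in any comparison or above background on both arrays of a group, and for each list up to 3 called genes by size in each comparison are named, with both genotypes' values where called in both. The members and lists were chosen with earlier results of these data known. Alternatives changed normalization, pseudocount, filter, arrays, weights and variance model.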

Additional observations from a re-analysis of the deposited data

Results flagged for a closer look

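AT5G17200, a pectin lyase-like gene below the filter, stood out by the order of its arrays, which was opposite in the genotypes: both cold arrays were above both warm arrays in wild type (13.2 and 15.5 against 12.9 and 5.31) and below both in sfr3 (7.57 and 3.36 against 8.84 and 9.47). Of these arrays, both cold sfr3 arrays, warm wild-type replicate 2 and warm sfr3 replicate 1 were not above background, so the order of the arrays and the log2 interaction of -1.26 give no measured direction. The difference was not tested in the reported fit, and when all probe sets were tested without a filter its adjusted p was 0.757 by limma. On cold sfr3 replicate 1 the background level was 35.4, and elsewhere 6.37 to 11.3.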

How the results depend on the processing

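Each comparison was refitted under 18 alternatives (17 for the interaction). Where a call is counted over settings rather than alternatives, the reported fit is among the settings, and a filter that the gene did not pass is left out. For cold in wild type the count of 6 called members was 5 to 9 under alternatives that kept all arrays. It was 9 when only the groups compared were fitted or arrays were weighted, fits that called 48% and 48.4% of all probe sets. The reported fit called 26.3%, and each fit without 1 of the wild-type arrays called a smaller share. The members' count is read beside that share. It was 2 without warm wild-type replicate 2, and 3 without cold wild-type replicate 1 or 2, over a range of 2 to 8 when 1 array was left out. For cold in sfr3 the 8 called members became 6 to 10, with 7 to 10 when 1 array was left out. Between genotypes in the cold the count of 0 became 6 without cold sfr3 replicate 2, and for the interaction 3, so that leaving out 1 array gave 0 to 6 and 0 to 3. It was 0 to 0 in the warm. With a replicate block the counts were 6 and 8 for cold in wild type and sfr3 and 0 for the others, the same as without it. Same-numbered replicates did not deviate together (correlations of -0.0867 to 0.0525), so the numbers were not taken as pairs. AT5G41870 in sfr3 turned from -0.02 to 0.99 without cold sfr3 replicate 1 and -1.03 without replicate 2. Each of these fits rests on a single cold sfr3 array, and the signal of AT5G41870 on replicate 1 was below background.

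Over all probe sets, calls for cold ranged from 1500 to 6600 in wild type (3594 as reported) and from 1867 to 7981 in sfr3 (4261). Between genotypes they ranged from 4 to 5372 in the cold (17), 0 to 1 in the warm (0) and 0 to 3802 for the interaction (5). The highest counts for cold in sfr3, the genotypes in the cold and the interaction came without cold sfr3 replicate 2, and that for cold in wild type with array weights. Centring arrays on their medians moved the median sfr3 cold difference of all probe sets from 0.06 to -0.19 and the share of calls that were higher from 47.6% to 30.9%, and the members' split stayed at 5 higher and 3 lower.

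Members above background numbered 29 rather than 17 in warm wild type and 23 rather than 14 in cold sfr3 when 1 array sufficed, and 23 rather than 15 in warm sfr3 with the 75th percentile of the controls as the level. Members near background have only a bound.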
